A study of Mus musculus with 40 samples.

Results

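The 42 mitosis and spindle genes were chosen by symbol, from a list of G2/M cyclins and kinases, spindle checkpoint proteins, kinetochore proteins, kinesins and cytokinesis factors. All 42 symbols were found among the 23480 genes of both expression tables, and all 42 passed the filter on low values in both. They were measured by RNA sequencing in 4T1, an established mouse mammary carcinoma cell line, in 10 derived lines that each expressed 1 short hairpin RNA (shRNA), a stem-loop that is processed into a small RNA and lowers mRNAs that pair with it. All lines were infected at a multiplicity of 0.3 and kept under drug for 10 days on average. In the Slpi table, a line with hairpin 66708, selected with puromycin at 1 µg/ml, stood beside 4 lines with the gene-named hairpins Slpi1U1, Slpi1U2, Slpi2 and Slpi4, selected with hygromycin at 500 µg/ml. In the Mgp table, a line with hairpin 88943 (puromycin) stood beside the gene-named hairpins Mgp1, Mgp1U1, Mgp2 and Mgp1U3 (hygromycin).

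The design text of the series asks how far hairpins of the TRC collection and microRNA-housed (ultramiR) hairpins chosen with the shERWOOD method change the levels of unintended genes. That 66708 and 88943 were the TRC hairpins was inferred from their catalogue-style numbers and their drug, so hairpin source, vector and drug coincide and cannot be told apart. Every line carried a hairpin, and no untransduced line was among the samples analysed here. The labels list 40 samples, 4 per hairpin, while the tables hold 20 columns, 2 per hairpin, and no column could be tied to a single sample. Each column was used as 1 library of its hairpin (n = 2 per hairpin). Whether the 2 were grown separately is not stated, so a p-value here reflects library-to-library spread that could be purely technical.

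Libraries held 12.1 M to 28.5 M counted reads. The chi-square per degree of freedom between the 2 libraries of a hairpin was 1.59 to 12.71, highest for Mgp2. Values are given as scaled reads, which are reads divided by the library's size factor within a table. Differences are given on the deposited log2-like scale, and a gene was called at a limma adjusted p under 0.05. As a check of the labels, Slpi mRNA was 151 CPM (the gene's share of all counted reads, on the usual scale) in 66708 and 48.2 to 60.9 in the 4 Slpi-named lines, and Mgp mRNA was 15.8 CPM in 88943 and 1.15 to 8.32 in the 4 Mgp-named lines. The gene that was not the target differed between the same lines too: Mgp was 104.9 CPM in 66708 and 15.4 to 29.9 in the Slpi-named lines, and Slpi was 139.9 CPM in 88943 and 453 to 586 in the Mgp-named lines, so this check is not specific to the targets. All 8 epithelial markers (Epcam, 4 keratins, Cdh1, Cldn4 and Cldn7) were present. Their summed level was 2272 to 2320 CPM in 66708 against 2018 to 2165 in its comparison libraries, and 2614 to 2622 in 88943 against 1543 to 1731. Of the 7 tested, 7 were called higher in 88943 (28.7% of all genes tested). In 66708, 4 were called higher (32.1% of all genes) and 2 lower (23.6%). The 8 leukocyte markers summed to 4.14 to 9.59 CPM over all 20 libraries, and the fibroblast and endothelial markers to 25.3 to 58.6 CPM, with Kdr at 0 in 88943, in 66708 and in the Mgp-named lines. The part of the epithelial shift in the results below was not tested. In these bulk samples, fewer cells in G2 or mitosis and less RNA per such cell cannot be told apart.

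Entry into mitosis is driven by the kinase Cdk1 bound to B-type cyclins, which the Cdc25 phosphatases release from inhibition. Kinetochores then tie chromosomes to spindle microtubules, and a checkpoint that includes Bub1, Bub1b and Mad2l1 restrains Cdc20 until every chromosome is attached. Most of these genes are transcribed mainly in G2 and mitosis, and proliferating carcinoma cells express them strongly. Their promoters are known for CCAAT boxes and for the cell cycle homology region, whose usual form is TTTGAA.

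The promoters of 4 members are shown as examples. Cenpf, Mki67 and Ccnb2 were lower in 66708, Mki67 was higher in 88943, and Nuf2 was lower in 88943. Ccnb2 is also the partner to which Ccnb1 is compared. Each sequence runs 5′ to 3′ from 220 bases before to 30 bases after the transcript start of RefSeq (GRCm38.p6, minus strand for all 4), and capitals mark the CCAAT box, the element TTTGAA and its variant form TTCGAA, each on either strand (a CCAAT on the other strand reads as ATTGG). The windows lie at chr1:189688057-189688306 for Cenpf, chr7:135716350-135716599 for Mki67, chr9:70421525-70421774 for Ccnb2 and chr1:169531435-169531684 for Nuf2.
Cenpf: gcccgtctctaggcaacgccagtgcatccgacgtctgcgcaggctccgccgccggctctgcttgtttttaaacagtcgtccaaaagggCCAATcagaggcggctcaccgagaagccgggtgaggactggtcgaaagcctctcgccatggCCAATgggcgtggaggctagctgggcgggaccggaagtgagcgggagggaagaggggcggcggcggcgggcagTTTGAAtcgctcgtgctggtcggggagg
Mki67: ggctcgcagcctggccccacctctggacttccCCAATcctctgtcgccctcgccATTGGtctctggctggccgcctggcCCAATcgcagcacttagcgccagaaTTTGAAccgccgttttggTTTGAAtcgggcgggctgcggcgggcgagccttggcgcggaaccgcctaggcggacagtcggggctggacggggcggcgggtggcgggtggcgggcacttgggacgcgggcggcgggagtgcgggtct
Ccnb2: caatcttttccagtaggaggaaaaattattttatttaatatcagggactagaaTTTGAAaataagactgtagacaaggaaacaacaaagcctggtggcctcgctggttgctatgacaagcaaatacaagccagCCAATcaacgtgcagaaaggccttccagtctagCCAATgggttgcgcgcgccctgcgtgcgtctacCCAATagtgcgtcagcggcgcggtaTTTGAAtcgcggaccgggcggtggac
Nuf2: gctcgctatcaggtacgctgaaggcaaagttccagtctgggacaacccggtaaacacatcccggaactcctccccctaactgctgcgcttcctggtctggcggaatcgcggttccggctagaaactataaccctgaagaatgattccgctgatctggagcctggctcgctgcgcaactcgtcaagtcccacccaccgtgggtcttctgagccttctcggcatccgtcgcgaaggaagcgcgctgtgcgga
The Cenpf window held 2 CCAAT and a TTTGAA that begins 2 bases after the start, and the Ccnb2 window held 3 CCAAT and 2 TTTGAA, the second 4 bases after the start. In the Mki67 window, 3 CCAAT and 2 TTTGAA lay 98 to 188 bases before the start. None of the 3 motifs was found in the window of Nuf2. Of the 42 members, 34 were matched to the RefSeq promoter table. In windows of 300 bases (250 before and 50 after the start, either strand), 27 of the 34 held CCAAT, or 79.4% (exact 95% interval 62.1 to 91.3), against 41.1% of all 27025 symbols. TTTGAA was in 25 of 34, or 73.5% (55.6 to 87.1), against 20.2%, and TTCGAA in 4 of 34, or 11.8%, against 1.80%. A CCAAT together with either of the other motifs was in 70.6% of members and 8.61% of all symbols. TTTGAA depends on the bases after the start: within the 250 bases before it, 35.3% of members held it, against 18.3% of all symbols. Mad2l1, Pttg1 and Birc5, like Nuf2, held none of the 3 motifs. All motifs here are matches of letters, not tested sites, and their relation to the direction of a member was not tested.

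The 66708 line had lower levels of most members. Of 42, 28 were called lower, 3 were called higher (Cdk1, Mad2l1 and Nek2) and 11 were not called. Among all 9489 genes tested, 23.6% were called lower and 32.1% higher. Both 66708 libraries lay below all 8 gene-named libraries for 24 members (20.4% of all genes) and above them for 2, Cdk1 and Mad2l1 (28.3% of all genes). The median member differed by -0.13 and the median of all genes by 0.02. The 31 calls held under each of 4 other scalings. With the means of the 4 gene-named hairpins as the only measure of spread, 12 members were called lower and none higher, and without the first 66708 library 18 were called lower.

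The 88943 line was mixed. Of 42 members, 19 were called lower, 5 were called higher (Cdc25b, Cdc25c, Cenpe, Kif2c and Mki67) and 18 were not called, while of all 9174 genes tested 42% were called lower and 28.7% higher. Both 88943 libraries lay below the other 8 for 15 members (36.2% of all genes) and above them for 3 (24.3%). The share of members called lower was thus near that of all genes, and the median member differed by -0.06 against -0.04 for all genes. Of the 24 calls, 14 held under each of the 4 other scalings, 5 higher and 9 lower. These scalings gave between 5 and 13 members higher and between 9 and 19 lower. Of all calls in this line, 40.6% were higher on the deposited scale and 50.3% with equal library medians; in 66708 the shares were 57.6% and 48.3%. With hairpin means as samples, 2 were called higher and 10 lower.

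**Figure D1:**
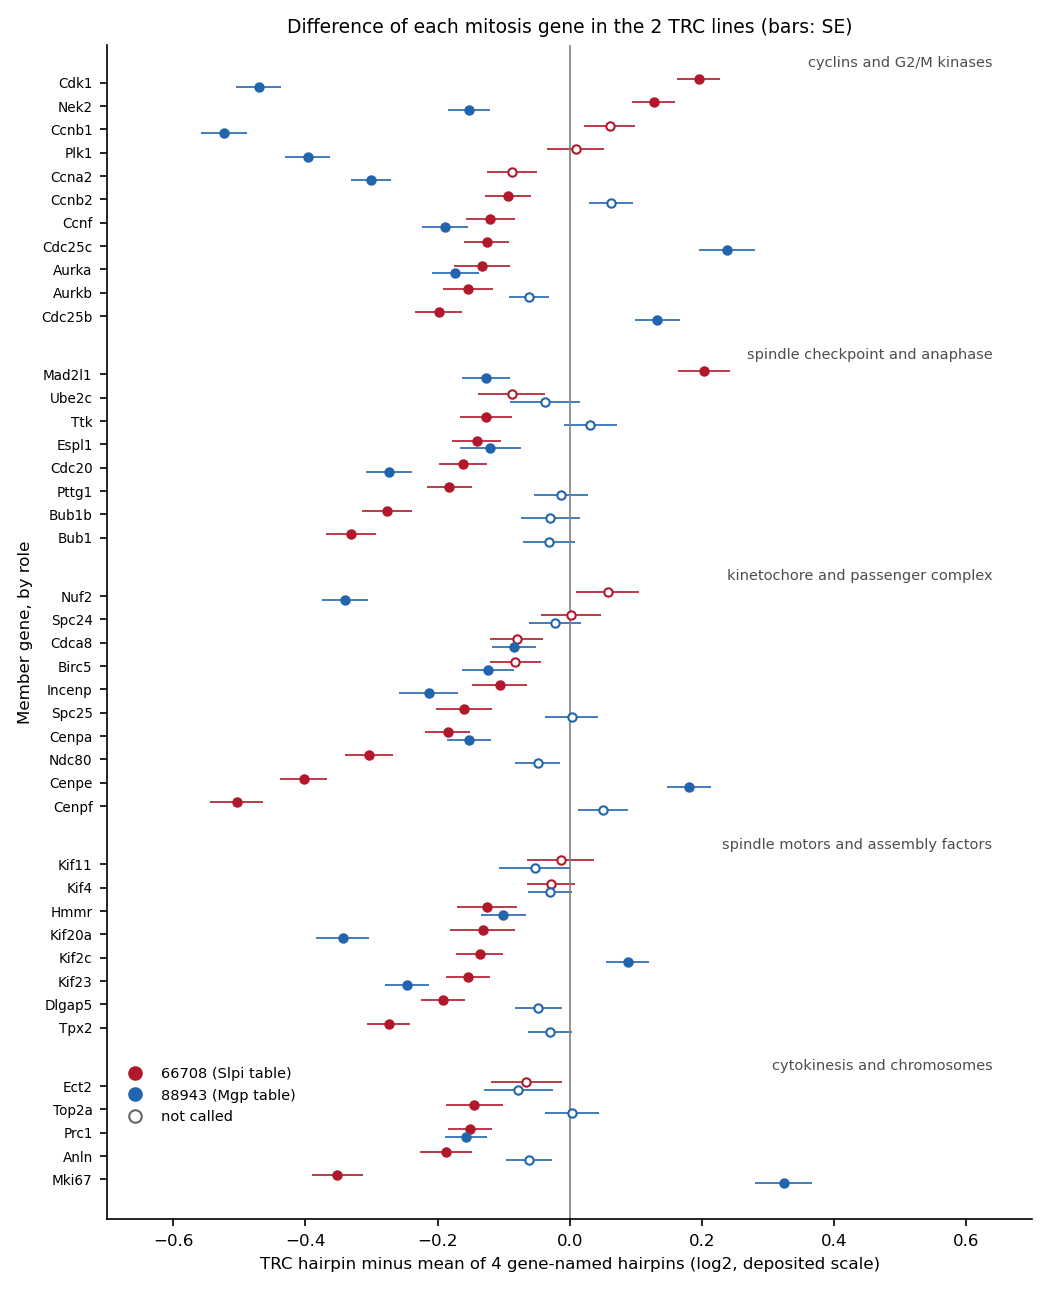
Difference of each of the 42 members between a TRC line and the mean of its 4 gene-named lines (x axis, log2 on the deposited scale, bars are SE), by role; filled points were called, open points were not. In 66708 (red) 28 members were called lower and 3 higher, and in 88943 (blue) 19 lower and 5 higher.

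Among the cyclins and mitotic kinases, 66708 had 2 of 11 members higher and 6 lower, and 88943 had 2 higher and 7 lower. The role counts stand beside 32.1% of all genes higher and 23.6% lower in 66708, and 28.7% higher and 42% lower in 88943. Cdk1, the kinase that starts mitosis (chr10:69335146-69352938), measured 4356 and 4412 scaled reads in the 66708 libraries and 3474 to 4132 (median 3758) in the 8 gene-named ones. Both 66708 libraries were above the rest, with a difference of 0.20 ± 0.03 (SE), 1.16-fold (adjusted p = 1.64e-04). In 88943 the same gene measured 2936 and 2827, against 4029 to 4375 (median 4202). Here both libraries were below the rest, with a difference of -0.47 ± 0.03 (SE), 0.687-fold (adjusted p = 5.44e-09).

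Ccnb1 encodes cyclin B1, the main mitotic partner of Cdk1 (chr13:100778650-100786570). It measured 2147 and 2209.8 scaled reads in 88943 and 3154 to 3670.2 (median 3306) in the Mgp-named libraries, and no library of 88943 reached the lowest of the others. The difference was -0.52 ± 0.04 (SE), 0.649-fold (adjusted p = 2.43e-09), the largest of any member in that table. In 66708, Ccnb1 measured 2534 and 2741, against 2358 to 2735 (median 2478), and the groups overlapped (0.06 ± 0.04 (SE), adjusted p = 0.194). Plk1, a kinase of centrosomes, kinetochores and mitotic entry, measured 1084 and 1070.4 in 88943, below all 8 others at 1374 to 1759 (median 1593) (-0.40 ± 0.03 (SE), 0.686-fold, adjusted p = 4.52e-08). It was 1470.5 and 1344 in 66708, inside the range of 1312 to 1488 (median 1399) (0.01 ± 0.04 (SE), adjusted p = 0.872).

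The phosphatases that activate Cdk1 went the other way from it. Cdc25b measured 1001 and 954 scaled reads in 66708, below all 8 others at 1089.8 to 1221 (median 1189) (-0.20 ± 0.04 (SE), 0.827-fold, adjusted p = 2.64e-04). In 88943 it was called higher by 0.13 ± 0.03 (SE) (adjusted p = 0.00216), though the libraries, at 1208 and 1157, overlapped the range of 929.9 to 1159 (median 1038). Cdc25c was called lower in 66708 (-0.13, adjusted p = 0.00544) and higher in 88943, where both libraries, 924 and 939, lay above 648 to 819 (median 729) (0.24, adjusted p = 1.17e-04). It shares 12.7% of its annotated exon bases with another gene model, so its reads are partly uncertain. Aurka, a centrosomal kinase, and Ccnf, an F-box cyclin, were called lower in both lines. Ccna2, the S and G2 cyclin, with 12.5% of its exon bases shared with Exosc9, was called lower in 88943 (-0.30, adjusted p = 3.05e-07) and had -0.09 in 66708 (adjusted p = 0.0657). Aurkb, the kinase of the chromosomal passenger complex, and Ccnb2 were called lower in 66708 (-0.15 and -0.09). Their values in 88943 were -0.06 and 0.06, neither called.

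**Figure D2:**
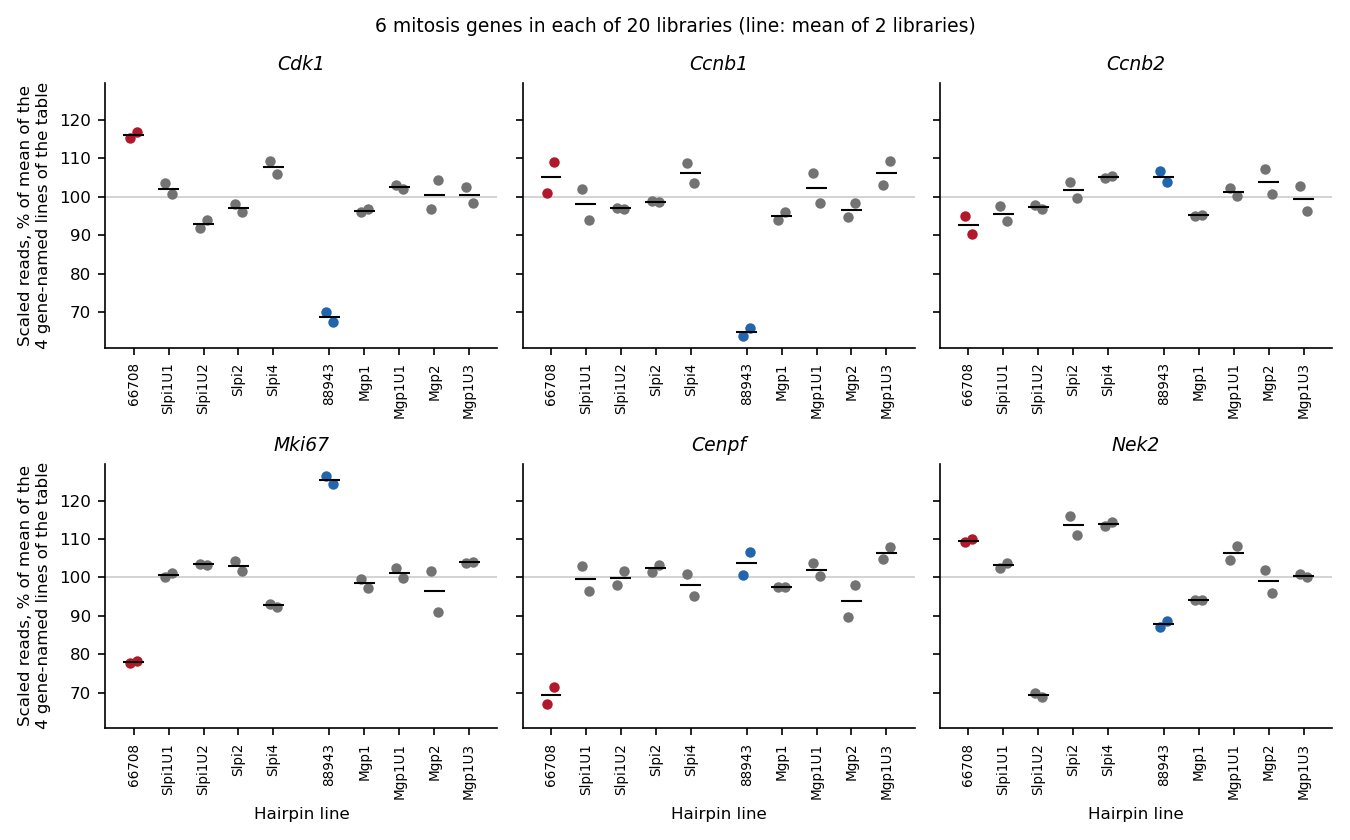
Scaled reads of 6 members in each of the 20 libraries, as a percentage of the mean of the 4 gene-named lines of the same table (y axis, not starting at 0); points are libraries, black lines are means of 2, and coloured points are the TRC lines. Cdk1 was above and Mki67 and Cenpf were below the others in 66708, while Cdk1 and Ccnb1 were below and Mki67 was above them in 88943.

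Of 8 checkpoint and anaphase genes, 66708 had 6 lower and 1 higher, and 88943 had 3 lower and none higher, a lower share there that does not exceed the 42% of all genes. Bub1, a checkpoint kinase of the kinetochore (chr2:127801122-127831865), measured 2771 and 2976 scaled reads in 66708, against 3597 to 3868 (median 3709.8). Bub1b, which encodes the Cdc20 inhibitor BubR1, measured 2145 and 2244, against 2634 to 2898 (median 2727). Neither gene overlapped between the groups, and both were called lower, with differences of -0.33 ± 0.04 (SE), 0.770-fold (adjusted p = 4.36e-06), and -0.28 ± 0.04 (SE), 0.797-fold (adjusted p = 2.51e-05). In 88943 they had -0.03 and -0.03 and were not called (adjusted p = 0.481 and 0.574).

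Mad2l1, the checkpoint protein that captures Cdc20, ran against Bub1 in the same libraries. It measured 1307 and 1352 in 66708, above all 8 others at 965 to 1246 (median 1088) (0.20 ± 0.04 (SE), 1.21-fold, adjusted p = 5.01e-04). In 88943, Mad2l1 measured 1131 and 1146, against 1129.7 to 1429 (median 1262), an overlapping range; it was called lower (-0.13 ± 0.04 (SE), adjusted p = 0.00549), and the call was lost under 3 of the 4 other scalings. Cdc20, the activator of the anaphase-promoting complex, was called lower in both lines. It measured 1562 and 1407 in 88943, below the rest at 1778 to 1975 (median 1916) (-0.27 ± 0.03 (SE), 0.783-fold, adjusted p = 3.41e-06), and had -0.16 in 66708 (adjusted p = 0.00177). Pttg1 (securin) and Ttk (the checkpoint kinase Mps1) were called lower in 66708 and not called in 88943. Espl1, the separase that cleaves cohesin, was called lower in both (-0.14 and -0.12), and its 88943 call was lost under 3 scalings. Ube2c, the conjugating enzyme of the anaphase-promoting complex, was called in neither.

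Of 10 kinetochore and passenger genes, 66708 had 6 lower and none higher, and 88943 had 5 lower and 1 higher. Cenpf, a large protein of the outer kinetochore (chr1:189640606-189688086), measured 8015 and 8561 scaled reads in 66708, against 11387 to 12343 (median 12090.1). Cenpe, the kinetochore kinesin that carries chromosomes to the metaphase plate (chr3:135212537-135273611), measured 7585 and 7962, against 9922 to 10736 (median 10447). The 66708 libraries held the lowest values of both genes. Cenpf differed by -0.50 ± 0.04 (SE), 0.694-fold (adjusted p = 1.29e-07), and Cenpe by -0.40 ± 0.04 (SE), 0.745-fold (adjusted p = 3.70e-07). These are the largest member differences in that table. In 88943, Cenpe measured 11367 and 11280.5, above all others at 9532 to 10432 (median 9907) (0.18 ± 0.03 (SE), adjusted p = 1.44e-04), and Cenpf, at 0.05, was not called (adjusted p = 0.249).

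The 4 subunits of the Ndc80 complex, which binds microtubules, did not share 1 pattern. Ndc80 was called lower in 66708 (1191 and 1262 scaled reads, against 1496 to 1784 (median 1598); -0.30, adjusted p = 6.50e-06), while its direct partner Nuf2 was 1710.3 and 1645, inside the range of 1477 to 1773 (median 1589), and not called (0.06, adjusted p = 0.320). In 88943 the call fell on Nuf2 instead. Nuf2 (chr1:169497934-169531464) measured 1388 and 1376, below all others at 1792 to 1993 (median 1873) (-0.34 ± 0.03 (SE), 0.735-fold, adjusted p = 3.07e-07), and Ndc80 had -0.05 (adjusted p = 0.220). Spc25 was called lower in 66708 (-0.16, adjusted p = 0.00541) and not in 88943, and Spc24 was called in neither.

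In the chromosomal passenger complex, which corrects faulty attachments, Incenp was called lower in both lines. It measured 2424 and 2416 in 88943, below the others at 2712 to 3218 (median 2893) (-0.21 ± 0.04 (SE), adjusted p = 4.85e-04), and 2469 and 2453 in 66708, where the ranges overlapped (-0.11, adjusted p = 0.0413) and the call was lost under 6 of the 10 single left-out libraries. Birc5 (survivin) measured 3592 and 3596 in 66708, against 3642 to 4195 (median 3795) (-0.08, adjusted p = 0.0853), and was not called although both libraries lay below the others; under 3 of the 4 other scalings it was called lower. In 88943, Birc5 measured 3461 and 3148, against 3294 to 3929 (median 3694), and was called lower (-0.12, adjusted p = 0.0109) on the deposited scale and under 1 of the 4 other scalings, but not without the second 88943 library (adjusted p = 0.299). Cdca8 (borealin) was called lower in 88943 (-0.08, adjusted p = 0.0325), a call that also held under 1 of the 4, and had -0.08 in 66708 (adjusted p = 0.104). In the test of the difference between the contrasts given below, neither Birc5 (adjusted p = 0.486) nor Cdca8 (adjusted p = 0.123) passed. Cenpa, the centromeric histone, was called lower in 66708 (-0.18, adjusted p = 3.72e-04) and in 88943 (-0.15, adjusted p = 6.39e-04).

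Spindle motors and assembly factors were lower in 66708 for 6 of 8 members, with none higher, and in 88943 for 3, with 1 higher, where 42% of all genes were lower. Tpx2, which activates Aurka on the spindle (chr2:152847964-152895321), measured 3289 and 3347 scaled reads in 66708, against 3973 to 4276 (median 4089) (-0.27 ± 0.03 (SE), 0.808-fold, adjusted p = 5.60e-06). Dlgap5, a microtubule-stabilising protein, measured 1779 and 1780.4, against 2057 to 2172 (median 2076) (-0.19 ± 0.03 (SE), adjusted p = 1.85e-04). Both were below the whole range of the others in 66708 and were not called in 88943 (-0.03 and -0.05). Kif20a, the kinesin that brings the passenger complex to the midzone, measured 943 and 1066 in 88943, against 1261 to 1603 (median 1376) (-0.34 ± 0.04 (SE), 0.717-fold, adjusted p = 1.17e-06). Kif23, a kinesin of the central spindle (chr9:61915905-61946774), measured 4018 and 4159, against 4686 to 5124 (median 4951) (-0.25 ± 0.03 (SE), 0.826-fold, adjusted p = 6.37e-06). Neither overlapped with the Mgp-named libraries, and both were also called lower in 66708 (-0.13 and -0.15). Kif20a shares 29.3% of its annotated exon bases with Cdc23, so its reads are partly uncertain, and its 66708 call was lost under 6 of the 10 single left-out libraries. Kif2c, a microtubule depolymerase, was called lower in 66708 (-0.14) and higher in 88943 (0.09, adjusted p = 0.0252). Hmmr, a spindle-associated hyaluronan receptor, was called lower in both (-0.13 and -0.10), and its 88943 call was lost under 3 scalings. The motor Kif11 was called in neither.

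In the last role group, cytokinesis and chromosome genes, 66708 had 4 of 5 lower and 88943 had 1 higher and 1 lower, in a line where 42% of all genes were lower. Mki67, which coats mitotic chromosomes and is widely used as a marker of proliferation (chr7:135689784-135716361), measured 32901 and 33028 scaled reads in 66708, against 38978 to 44103 (median 42865). All gene-named libraries exceeded both 66708 libraries (-0.35 ± 0.04 (SE), 0.780-fold, adjusted p = 2.63e-06). In 88943, Mki67 measured 49656 and 48836, against 35766 to 40875 (median 39591), and both libraries exceeded the other 8 (0.32 ± 0.04 (SE), 1.25-fold, adjusted p = 6.03e-06). Anln, an actin-binding protein of the contractile ring, measured 22154 and 22799 in 66708, against 24787 to 26917 (median 25611), and both libraries were the lowest (-0.19 ± 0.04 (SE), adjusted p = 0.00112). Top2a, the topoisomerase that untangles sister chromosomes, measured 29339 and 30539.6 in 66708, below 31761 to 36472 (median 32249) (-0.14 ± 0.04 (SE), adjusted p = 0.0111), a call that was lost without the first 66708 library (adjusted p = 0.146). It measured 33421 and 34372 in 88943, within 30484 to 35942 (median 34218), and was not called (adjusted p = 0.940). Under quantile normalisation it was called higher in 88943 (0.23, adjusted p = 3.22e-04). Prc1, a microtubule bundler of the midzone, measured 3333 and 3362 in 88943, below 3611 to 3959 (median 3815) (-0.16 ± 0.03 (SE), adjusted p = 3.11e-04), and was also called lower in 66708 (-0.15, adjusted p = 0.00137). Its 88943 call was lost under quantile normalisation (-0.03, adjusted p = 0.426) and with hairpin means as samples (adjusted p = 0.0903). Its exons overlap another gene model over 11.1% of their bases. Ect2, an exchange factor needed for cytokinesis, was called in neither line.

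Set side by side, 10 members were called lower in both TRC lines: Ccnf, Aurka, Cdc20, Espl1, Cenpa, Incenp, Kif20a, Kif23, Hmmr and Prc1. Of all 9144 genes tested in both tables, 5.91% were lower in both. Of the 10, Incenp and Kif20a in 66708 and Espl1 and Hmmr in 88943 carry the lost calls given above. Others were lost too under single left-out libraries. In 66708 these were the calls of Hmmr (3 libraries), Aurka (2) and Ccnf, Cdc20 and Espl1 (1 each). In 88943, Espl1 was lost under 3 left-out libraries and Hmmr under 2. The 88943 calls of Aurka, Cenpa, Incenp and Prc1 held under 3 of the 4 other scalings. With hairpin means as samples, Cdc20 alone of the 10 was called in both lines (adjusted p = 0.0379 in 66708 and 0.00725 in 88943). No member was called higher in both (6.44% of all genes). Mki67, Cenpe, Cdc25b, Cdc25c and Kif2c were called lower in 66708 and higher in 88943 (10.6% of all genes). Of these, Cdc25b and Kif2c overlapped the Mgp-named range in 88943. Kif2c measured 1299 and 1359 scaled reads there, against 1142 to 1394, and was not called with hairpin means as samples (adjusted p = 0.361). By that fit, Mki67 alone of the 5 was called in both lines (adjusted p = 0.0114 in 66708 and 0.0158 in 88943). Cenpe (adjusted p = 0.0773) and Cdc25b (adjusted p = 0.163) lost the 88943 call, and Cdc25c lost the 66708 call (adjusted p = 0.105). Cdk1, Mad2l1 and Nek2 were called the reverse way (18.4%). Of these 3, Nek2 had -0.01 in 66708 without hairpin Slpi1U2, and Mad2l1 lost its 88943 call under 3 of the 4 other scalings. A further 13 were called lower in 66708 and not called in 88943 (6.34% of all genes), 6 were not called in 66708 and lower in 88943 (17.7%), and 5 were called in neither. A call in 1 line and not in the other does not show that the lines differ. The difference between the 2 contrasts was tested in a voom fit over all 20 libraries. The 66708 difference lay above the 88943 difference for 7 members (35.8% of all 9144 genes) and below it for 19 (35.2% of all genes). Which members passed depended on the scaling. With median-ratio factors in place of TMM, Aurkb and Cenpa no longer passed (adjusted p = 0.0730 and 0.541), and Kif20a did (adjusted p = 0.00755). The values that follow are from the fit with TMM. It was -0.79 ± 0.05 (SE), adjusted p = 1.33e-11 for Mki67, -0.72 ± 0.05 (SE), adjusted p = 3.72e-11 for Cenpe and -0.69 ± 0.06 (SE), adjusted p = 2.01e-09 for Cenpf. Cdk1 had 0.66 ± 0.05 (SE), adjusted p = 5.44e-10, Ccnb1 had 0.59 ± 0.06 (SE), adjusted p = 4.42e-08 and Nuf2 had 0.41 ± 0.08 (SE), adjusted p = 1.04e-04.

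**Figure D3:**
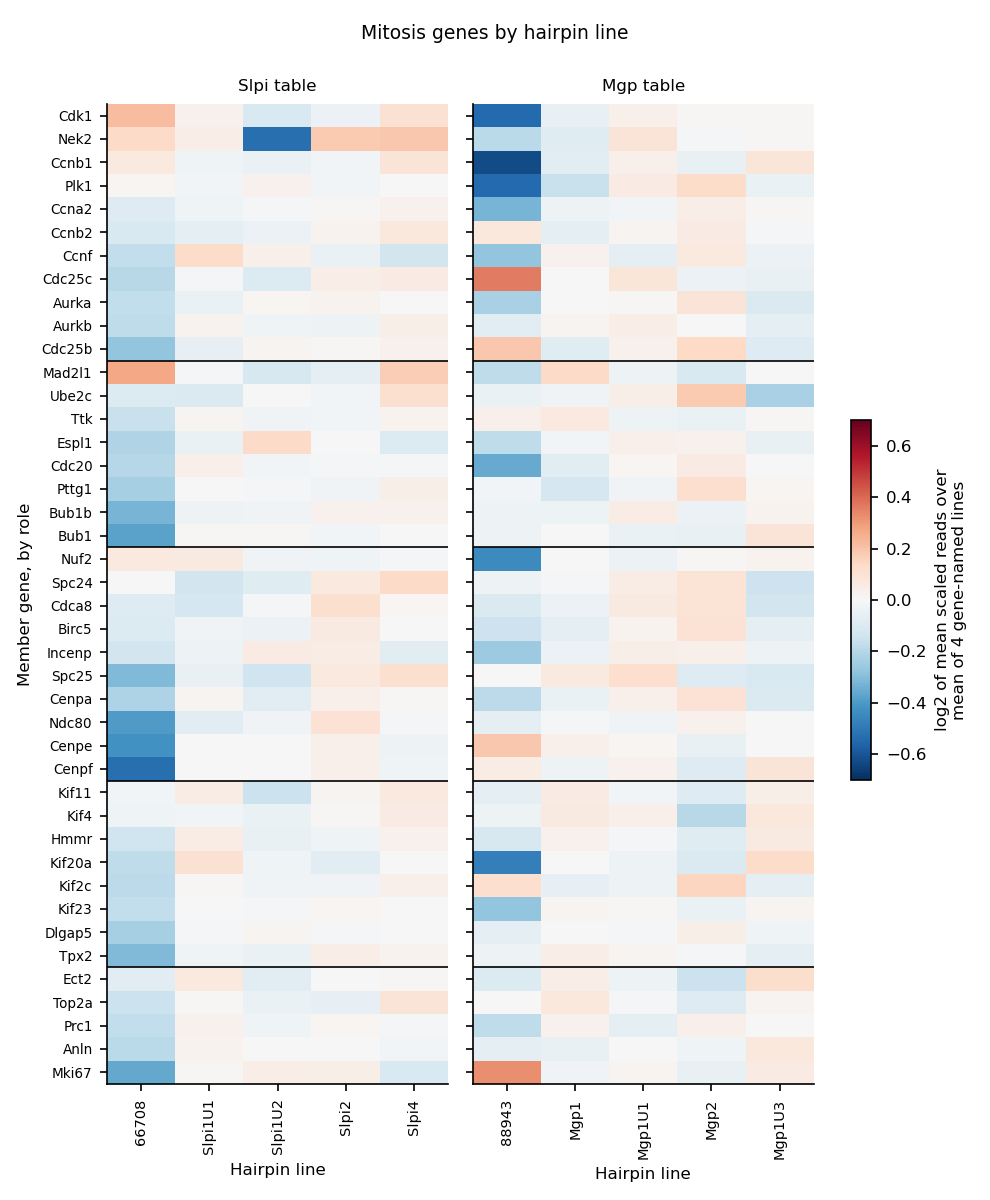
Mean scaled reads of each member (rows, by role) in each of the 10 lines (columns), as log2 of the ratio to the mean of the 4 gene-named lines of the same table; red is higher and blue is lower. The 66708 column was the lowest of its table for 31 of 42 members and the 88943 column for 22, and the most marked cell among gene-named lines was Nek2 in Slpi1U2.

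The proportion between members can be read within a single library, where no scaling enters. Such pairs were chosen after their values were seen, so they are given without a test. The ratio of Ccnb1 to Ccnb2 reads was 0.803 and 0.848 in the 88943 libraries and 1.19 to 1.52 in the 8 Mgp-named ones. In the Slpi table the ratio was 0.924 and 1.05 in 66708 and 0.827 to 0.911 in the others, so the TRC line lay below its table's range in one and above it in the other. The gene-named lines differed as well: all Mgp-named libraries lay above every library of the Slpi table, and 88943 overlapped the Slpi-named range. Ndc80 to Nuf2 was 0.696 and 0.767 in 66708, below 0.885 to 1.18. In 88943 it was 1.11 in both libraries, above 0.794 to 0.902. Cdc25c to Cdk1 was 0.154 and 0.145 in 66708, against 0.191 to 0.215. It was 0.315 and 0.332 in 88943, against 0.151 to 0.189, so the 2 TRC lines lay on opposite sides of their tables. Bub1 to Mad2l1 was 2.12 and 2.20 in 66708, below 2.89 to 3.85, and 2.98 and 3.08 in 88943, within 2.42 to 3.12. Aurka to Aurkb overlapped in the Slpi table, and in 88943, at 0.576 and 0.520, it lay just under 0.581 to 0.684.

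**Figure D4:**
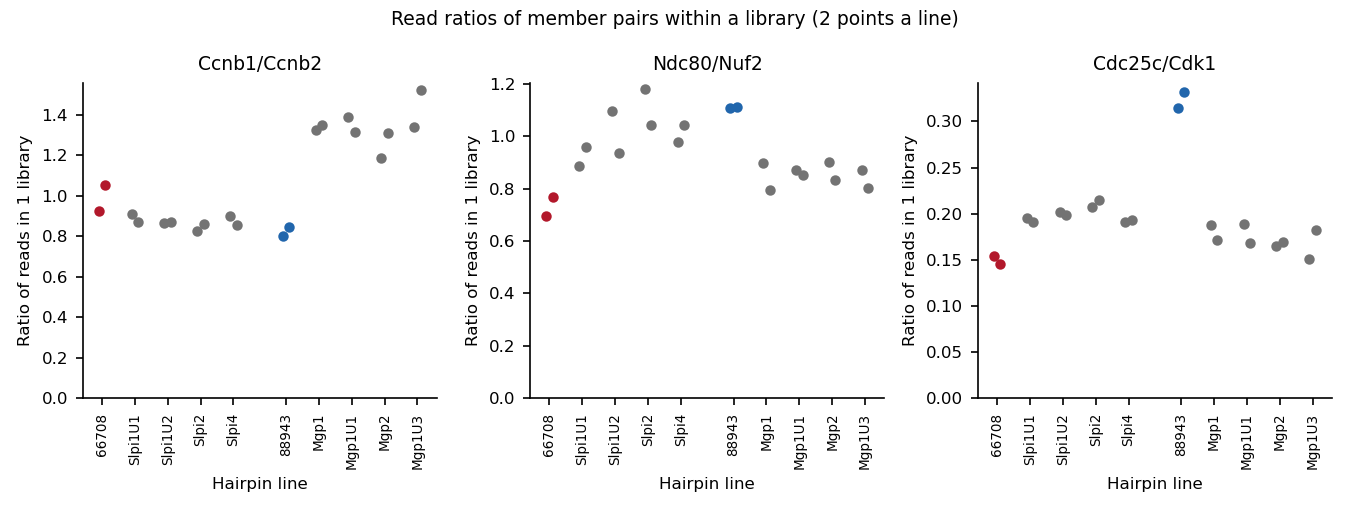
Ratio of the reads of 2 members within each library (y axis from 0), for 3 pairs and all 10 lines, with 2 points a line; red marks 66708 and blue 88943. Ccnb1 to Ccnb2 in 88943 stayed at or under 0.848, while the Mgp-named libraries reached 1.19 to 1.52 and the Slpi-named ones 0.827 to 0.911. Cdc25c to Cdk1 was 0.145 to 0.154 in 66708 and 0.315 to 0.332 in 88943.

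Differences among the gene-named hairpins of a table were called for fewer members. In the Slpi table, 2 of 42 members differed among the 4 lines, Cdk1 and Nek2 (7.55% of all genes). Nek2, a kinase that splits centrosomes (chr1:191821444-191833050), measured 1356 and 1334 scaled reads in Slpi1U2, 1985 and 2012 in Slpi1U1, 2247 and 2153 in Slpi2 and 2193 and 2214 in Slpi4. Slpi1U2 lay far under the others, with a difference of -0.53 from the other 3 (adjusted p = 6.24e-07). It was the only member called in that line (1.35% of all genes). The 66708 libraries held 2116 and 2128, within the range of the gene-named ones, and the call of Nek2 as higher in 66708 (0.13) rests on Slpi1U2: without that hairpin the difference was -0.01. In CPM, Nek2 was 82.9 in Slpi1U2, its lowest level of the 10 lines, and 142.7 in Mgp1U1, its highest. Its exons share 6.6% of their bases with another model.

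Against the other 3 gene-named lines, Slpi1U1 had no member called (1.8% of all genes), Slpi2 had 1 (3.65%) and Slpi4 had 4 (5.74%). The member in Slpi2 was Nek2, higher by 0.23. Slpi4 had Cdk1 (0.13), Mad2l1 (0.18) and Nek2 (0.23) higher and Mki67 lower (-0.14, adjusted p = 0.0490). Without the second Slpi1U1 library, 5 members were called in Slpi1U1, 7 in Slpi4 and 2 in Slpi2, and 7 differed among the 4 lines. Leaving out any library other than the 2 of Slpi1U1 and the second of Slpi1U2 gave 1 or 2 members in Slpi4.

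In the Mgp table, 9 of 42 members differed among the 4 gene-named lines (29.4% of all genes). Mgp2 had 9 members called (17.9%), Mgp1U3 had 5 (15.1%), Mgp1 had 2 (7.5%) and Mgp1U1 had none (5.56%). Kif4, a chromosome-arm kinesin (chrX:100625737-100727214), measured 2803 and 2948 scaled reads in Mgp2, 3465 and 3411 in Mgp1, 3400.3 and 3341 in Mgp1U1 and 3379 and 3552 in Mgp1U3. Both Mgp2 libraries were under the other 6 (-0.22, adjusted p = 8.44e-04). The 88943 libraries, at 3149 and 3254, lay between them, and without hairpin Mgp2 Kif4 was called lower in 88943 (-0.08, adjusted p = 0.0125). Under quantile normalisation Kif4 was called higher in 88943 (0.09, adjusted p = 0.0172), so its direction depended on the processing. Its exons share 15.1% of their bases with Pdzd11. Ube2c, which shares 22.8% with Tnnc2, measured 6381 and 5392 in Mgp2, 5166 and 5059.7 in Mgp1, 5317 and 5370.4 in Mgp1U1 and 4725 and 4142 in Mgp1U3, and 5254 and 4793 in 88943. It was called higher in Mgp2 (0.22, adjusted p = 0.0123) and lower in Mgp1U3 (-0.27, adjusted p = 0.00552). Plk1 measured 1374 and 1448 in Mgp1, 1663 and 1607 in Mgp1U1, 1759 and 1670.2 in Mgp2 and 1579.9 and 1467 in Mgp1U3. It was called lower in Mgp1 (-0.15, adjusted p = 0.0185) and higher in Mgp2 (0.13, adjusted p = 0.0193). The 2 libraries of Mgp2 stood apart from each other, as for Kif11 with 4801 and 5949.7 and Ect2 with 2732 and 3395. Without the first Mgp2 library 2 members were called in Mgp2 and 10 in Mgp1U3. Without the second, 20 were called in Mgp2, 14 in Mgp1U3 and 10 in Mgp1, and 24 members differed among the 4 lines. Without the first Mgp1 library, either Mgp1U1 library or the second Mgp1U3 library, 3 to 5 members differed among the lines, and without the last of these none was called in Mgp1U3.

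Per kilobase of annotated exon, the most abundant members over the 10 lines were Mki67 (median 229 CPM per kb), Top2a (217) and Anln (169), and the least were Spc25 (6.85) and Espl1 (6.24). As shares of all reads, the 42 members together made up 10857 and 11113 CPM in the 66708 libraries and 13180 to 13888 in the Slpi-named ones. In 88943 they made up 13489 and 13571 CPM, against 11993 to 12460 in the Mgp-named ones. The sum was thus 81.4% ± 1.3 (SD of 2 libraries) of the gene-named mean in 66708 and 109.8% ± 0.47 in 88943. On scaled reads, a scale added after the data were seen, it was 86.6% and 100.02%. Mki67, Top2a and Anln weigh most in this sum. Across the 10 lines the ratio of the highest to the lowest line in CPM was widest for Nek2 (1.72), followed by Mki67 (1.60), Cenpf and Cenpe (both 1.56) and Cdc25c (1.52). It was narrowest for Kif11 (1.17) and Ccna2 (1.18).

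Other genes of the cell cycle were read from 6 lists of genes outside the 42. Of all genes tested, 23.6% were called lower and 32.1% higher in 66708, and 42% lower and 28.7% higher in 88943. In 66708, condensin and cohesin genes had 13 of 21 lower and none higher, and spindle, centrosome and cytokinesis genes 21 of 38 lower and none higher, with median differences of -0.15 and -0.13. Kinetochore and checkpoint genes had 13 of 32 lower and 2 higher. Genes of G1/S and replication had 14 of 35 higher and 7 lower, with a median of 0.04. The anaphase-promoting complex had 3 of 15 in each direction, and transcription and cell cycle control 11 of 31 higher and 9 lower. In 88943, G1/S and replication genes had 27 of 36 lower and 1 higher, with a median of -0.26. Transcription and cell cycle control had 17 of 31 lower and 9 higher, and the anaphase-promoting complex 8 of 15 lower and 1 higher. Condensin and cohesin had 7 of 21 higher and 4 lower, kinetochore and checkpoint genes 9 of 30 higher and 8 lower, and spindle, centrosome and cytokinesis genes 11 of 38 higher and 12 lower. The spindle list in 88943 was thus near the shares of all genes in the upward direction and under them in the downward one.

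**Figure D5:**
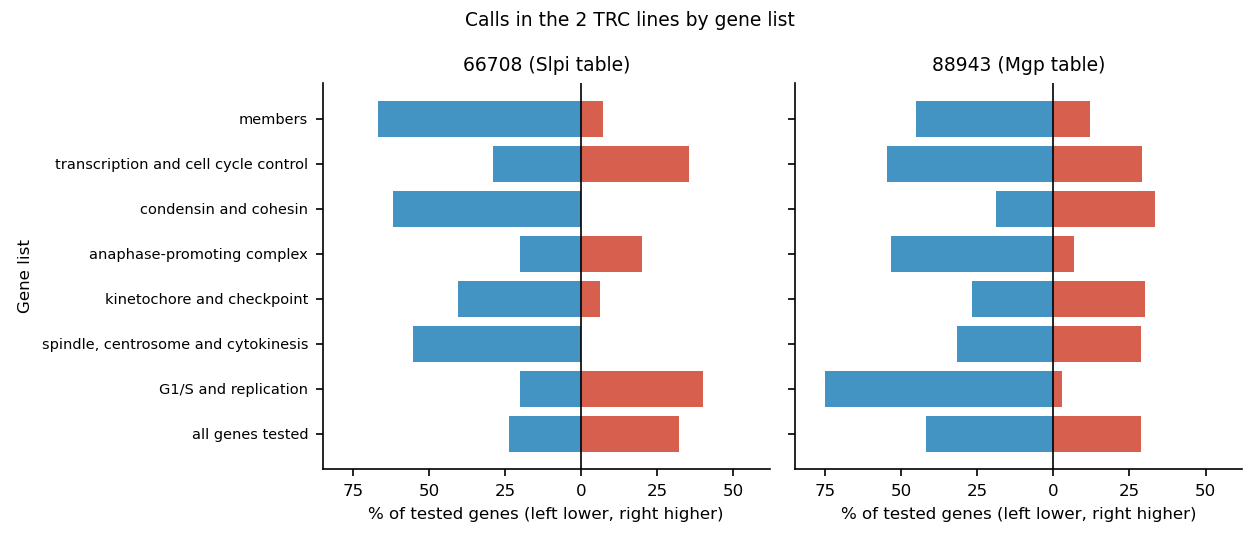
Percentage of tested genes called lower (blue, to the left) and higher (red, to the right) in 66708 and in 88943, for the 42 members, 6 further cell cycle lists and all genes tested. In 66708 no condensin, cohesin, spindle, centrosome or cytokinesis gene of the lists was called higher, and in 88943 the G1/S and replication genes had 27 of 36 lower.

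In 66708 the replicative helicase subunit Mcm2 had the largest difference of these lists (-0.67 ± 0.03 (SE), fold 0.565, adjusted p = 6.98e-10), and the G1 kinase Cdk4 was higher (0.44 ± 0.03 (SE), fold 1.40, adjusted p = 1.22e-07). Casc5, the kinetochore scaffold for Bub1, was lower (-0.45 ± 0.04 (SE), fold 0.701, adjusted p = 4.80e-07), as was Mastl, the kinase that shields Cdk1 substrates (-0.38 ± 0.05 (SE), fold 0.722, adjusted p = 5.75e-06). Arpp19, the substrate through which Mastl acts, was higher (0.39 ± 0.04 (SE), fold 1.35, adjusted p = 5.97e-07). The microtubule polymerase Ckap5 (-0.38 ± 0.05 (SE), fold 0.752, adjusted p = 1.64e-05) and the centromere protector Sgol2 (-0.25 ± 0.04 (SE), adjusted p = 5.70e-05) were lower. The kinetochore subunit Pmf1 (0.37 ± 0.05 (SE), fold 1.47, adjusted p = 8.69e-06) and Anapc5 of the anaphase-promoting complex (0.24 ± 0.03 (SE), fold 1.20, adjusted p = 2.60e-05) were higher, and Fbxo5, its inhibitor, was lower (-0.21 ± 0.04 (SE), fold 0.815, adjusted p = 9.14e-04). In 88943 the ribonucleotide reductase subunit Rrm2 was lower (-0.77 ± 0.04 (SE), fold 0.549, adjusted p = 6.43e-11), as were Arhgap11a (-0.61 ± 0.04 (SE), fold 0.631, adjusted p = 6.23e-10) and the repressor E2f8 (-0.55 ± 0.03 (SE), fold 0.650, adjusted p = 7.89e-10). Bub3, the partner of Bub1, and the condensin subunit Smc2 were lower (-0.40 ± 0.04 (SE), fold 0.725, adjusted p = 7.92e-08 and -0.38 ± 0.04 (SE), fold 0.752, adjusted p = 1.04e-07). The pocket protein Rbl2 (0.50 ± 0.03 (SE), fold 1.72, adjusted p = 2.25e-09) and the spindle pole protein Aspm (0.41 ± 0.03 (SE), fold 1.36, adjusted p = 3.17e-08) were higher. So were the cohesin loader Nipbl (0.23), the kinetochore protein Cenpt (0.18), the anaphase-promoting complex activator Fzr1 (0.13) and the clamp loader subunit Rfc4 (0.10), while the complex subunit Anapc1 was lower (-0.23). None of these genes overlapped between the TRC line and its 4 gene-named lines. They were picked as the called genes with the largest differences, so the lack of overlap is not a further result. Of all genes tested, 20.4% lay below and 28.3% above the gene-named libraries in 66708, and 36.2% below and 24.3% above in 88943.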

How the data were processed

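RNA was measured in 10 lines of 4T1 cells. The submitters' processing notes name Bowtie2, HTSeq, DESeq and the build mm10 (their roles, versions, gene annotation, strand setting: not given in the sources used here). The deposited tables hold the authors' variance-stabilised log2 values, with smallest values of 7.92 (Slpi table) and 8.12 (Mgp table), so differences of weak genes are understated. The tables were normalised separately. The transform was inverted to reads, which came out whole within 0.001 for 100% of values; depth ran from 12.1 M to 28.5 M reads. Genes with a mean at least 1 unit above the smallest value (121 and 139 scaled reads) were tested, 9489 and 9174 of 23480. Each table was fitted with limma 3.58.1 (R 4.3.3), its variance prior following mean level, all hairpins together; p-values were two-sided, Benjamini-Hochberg over all genes tested, at 0.05. The difference between tables used voom on recovered reads with TMM. The fits were tested on simulated data in which few genes changed, in random directions. Changes as widespread and as uneven in direction as those called here were not simulated. Members, lists, named genes and tests were chosen with earlier results of these data known. Full values were given for the 2 members of each role with the largest difference per table, for Cdk1, Ccnb1, Plk1, Mki67, Top2a and Birc5, for the 3 members differing most among gene-named hairpins, with the most changed called gene per direction of each other list. Other scalings, filters, left-out libraries and hairpins, and a replicate block were tried. Gene positions are from GENCODE on GRCm38, promoters from RefSeq. Intervals and read totals cover counting error only. Hairpin sequences were not used here.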

Additional observations from a re-analysis of the deposited data

Results flagged for a closer look

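Of 42 members, 26 passed the test of the difference between the 66708 contrast and the 88943 contrast (voom over all 20 libraries, log2), 7 above and 19 below. The 16 of them for which full values are reported follow. The 66708 difference minus the 88943 difference was 0.66 for Cdk1, 0.59 for Ccnb1, 0.44 for Plk1, 0.41 for Nuf2, 0.35 for Mad2l1 and 0.24 for Nek2. It was -0.79 for Mki67, -0.72 for Cenpe, -0.69 for Cenpf, -0.57 for Cdc25b, -0.44 for Bub1, -0.39 for Bub1b, -0.38 for Tpx2, -0.28 for Dlgap5, -0.25 for Top2a and -0.23 for Anln. Of all genes, 35.8% lay above and 35.2% below in the same test. With median-ratio factors in place of TMM, the differences moved upward. Cdk1 had 0.75, Mki67 -0.69, Dlgap5 -0.18, Top2a -0.16 and Anln -0.13, and these 5 still passed. Aurkb and Cenpa no longer passed, and Kif20a did.

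Kif4 in Mgp2, at a mean of 2875 scaled reads, stood apart from the other 3 gene-named lines of its table by Dixon's criterion. Of 31 groups of 4 lines tested, 1 was so marked, and chance marks about 1 in 20 where groups are not picked by their spread. Kif4 was picked because it differed most among these same lines, so that rate does not apply to it.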

How the results depend on the processing

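Of the counts and summary values, 236 under alternatives stayed within 1.5 times the main value or within the replicate spread, and 75 moved. With hairpin means as samples, 66708 had 0 members higher and 12 lower, and 88943 had 2 higher and 10 lower. Quantile normalisation gave 88943 13 higher and 9 lower, Mgp1 1 and Mgp1U3 3. TMM with voom gave Mgp1U3 2; voom with median-ratio factors gave Mgp2 14 and Mgp1U3 3. Without the filter, members differing among gene-named hairpins were 1 (Slpi table) and 4 (Mgp table), and Slpi4, Mgp1, Mgp2 and Mgp1U3 had 1, 0, 4 and 2. Equal library medians left 1 member differing among the Slpi-named hairpins. The replicate block left 1 there, 2 in Slpi4 and 8 in Mgp1U3, and kept all other counts within 1.5 times (27 lower in 66708, 19 lower in 88943). The column numbers showed no consistent pairing of the libraries. Correlations of the deviations between hairpins ran from -0.53 to 0.55 (median -0.015, Slpi table) and from -0.17 to 0.28 (median 0.008, Mgp table). Whether some libraries of different hairpins shared a batch was not tested. 

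Leaving out 1 library gave 18 to 30 members lower in 66708 (18 without 66708 replicate 1), 15 to 22 lower and 4 to 6 higher in 88943, 1 to 7 (Slpi table) and 3 to 24 (Mgp table) differing among gene-named hairpins, and 18 to 22 and 6 to 8 in the difference between contrasts. Per line the ranges were 0 to 5 (Slpi1U1), 1 to 2 (Slpi1U2), 0 to 2 (Slpi2), 1 to 7 (Slpi4), 0 to 10 (Mgp1), 0 to 1 (Mgp1U1), 2 to 20 (Mgp2) and 0 to 14 (Mgp1U3). The cause was not tested.

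Top2a in 88943 was called only under quantile normalisation (0.23). Signs turned for small differences. Plk1 in 66708 was -0.018 with equal medians, -0.036 with quantile normalisation and -0.035 with TMM, and ran from -0.041 to 0.059 over left-out libraries. Nek2 in 66708 was -0.0054 without hairpin Slpi1U2. In 88943, Kif4 was 0.014, 0.091 and 0.036 and Ube2c 0.0065, 0.10 and 0.024 under the same 3 scalings, and Birc5 0.0022 with quantile normalisation. Of these, Kif4 was called higher with quantile normalisation (adjusted p = 0.0172). Without hairpin Mgp2, Top2a was -0.026 and Ube2c 0.019; over left-out libraries Top2a ran from -0.016 to 0.024 and Ube2c from -0.10 to 0.023. The summed level was 86.6% (66708) and 100.02% (88943) on scaled reads. Within 250 bases before the start, 35.3% of members held TTTGAA, 38.2% TTTGAA or TTCGAA, and 35.3% either with CCAAT.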
